A study of Homo sapiens with 30 samples.

Results

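FTH1, FTL and TFRC encode the heavy and light chains of ferritin and the transferrin receptor, and are 3 of the 62750 genes in the count tables. They were chosen by name, and a peak was taken as theirs when its centre lay in the gene on the same strand. Their peaks numbered 21 of 14334 for full-length LARP6 (FL), 38 of 17180 for ΔNTR, 32 of 15870 for ΔCTR, 2 of 636 for ΔLa-module and 1 of 291 for ΔNTD. FTH1 (ENSG00000167996) lies on the minus strand at chr11:61959718-61967634 of GRCh38, FTL (ENSG00000087086) on the plus strand at chr19:48965309-48966879, and TFRC (ENSG00000072274) on the minus strand at chr3:196012511-196082153.

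The cells were U-87 MG, an established human glioblastoma line. Lentivirus-delivered, myc-tagged and codon-optimised LARP6 was induced in 5 lines with doxycycline at 60 ng/mL for 24 h, and these lines had been selected with puromycin. LARP6 is an RNA-binding protein with a folded La-module between a disordered N-terminal region (NTR) and a C-terminal region (CTR). The lines carried FL, ΔNTR (without the NTR), ΔLa-module (without the La-module), ΔNTD (without NTR and La-module together) or ΔCTR (without the CTR). Parental cells with no variant were the negative control, and the labels give them the same treatment text. Vector, selection and the expressed variant cannot be told apart in any comparison with parental cells. iCLIP, which maps the positions at which a protein was UV-crosslinked to RNA, was deposited as 1 list per variant. Each list pools 3 replicates, and peaks also called in parental cells had been removed. A peak score is the sum over the pooled replicates and was not scaled to depth. Peaks were called in each replicate before merging, so a peak with a low score can come from only 1 replicate. Total input RNA of each line was sequenced in 1 library of paired 150 nt reads (PE150) and 1 library of single 50 nt small-RNA reads (SE50). With 1 list or library per line there was no spread between replicates and no test. Intervals below are exact 95% intervals that cover counting error only and treat each unit of score as 1 count.

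Ferritin is the hollow protein shell in which cells store iron, and its heavy chain oxidises the iron that enters. The transferrin receptor brings transferrin-bound iron into the cell by endocytosis. The mRNAs of all of these proteins carry iron-responsive elements, short stem-loops with an unpaired C and a CAGUGN loop that iron regulatory proteins bind when iron is scarce. In the 5′UTR of ferritin mRNAs such binding blocks translation, and in the 3′UTR of the receptor mRNA it protects the transcript from decay. LARP6 itself is best known for binding a 5′ stem-loop of collagen mRNAs.

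Matches to the iron-responsive stem-loop were searched in the spliced UTRs of the MANE Select transcripts. A match was C, any 5 bases, CAGTG followed by A, C or T, and 5 bases that pair with the first 5 at all 5 positions, with G-T pairs allowed. FTH1 and FTL each held 1 match in the 5′UTR and TFRC held 4 in the 3′UTR. Allowing 1 unpaired position added no match in these mRNAs. Stem-loops of another form would be missed, so the 4 matches need not be all the iron-responsive elements of TFRC. The match was rare, with 11 of 18763 5′UTRs (0.0586%) and 97 of 18780 3′UTRs (0.517%) holding at least 1. The 6 matches are shown because the peaks below are placed against them. Each is given 5′ to 3′ on the mRNA strand, and capitals mark the unpaired C and the 6 loop bases.
FTH1, 5′UTR, chr11:61967574-61967603: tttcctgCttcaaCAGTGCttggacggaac
FTL, 5′UTR, chr19:48965334-48965363: tctcttgCttcaaCAGTGTttggacggaac
TFRC 1, 3′UTR, chr3:196050979-196051008: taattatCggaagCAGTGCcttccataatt
TFRC 2, 3′UTR, chr3:196050575-196050604: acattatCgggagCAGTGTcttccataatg
TFRC 3, 3′UTR, chr3:196050510-196050539: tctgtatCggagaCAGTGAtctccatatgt
TFRC 4, 3′UTR, chr3:196050463-196050492: taattatCgggaaCAGTGTttcccataatt
The ferritin stem-loops lay at nt 39 to 55 of the 1203 nt FTH1 mRNA and at nt 33 to 49 of the 871 nt FTL mRNA. Those of TFRC lay at nt 3295 to 3311, 3699 to 3715, 3764 to 3780 and 3811 to 3827 of 5012 nt.

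The PE150 gene counts totalled 25027075 to 28692476 per library, and the lists summed to scores of 102788 (FL), 92958 (ΔNTR), 118751 (ΔCTR), 2320 (ΔLa-module) and 999 (ΔNTD). Mesenchymal glioblastoma markers were present in all 6 PE150 libraries, with VIM at 7039 to 8004 CPM and CD44 at 2083 to 2336 CPM. The lowest of those examined were CHI3L1 at 84.1 to 111 CPM and NES at 52.0 to 57.7 CPM. The astroglial marker GFAP stayed at or under 0.240 CPM, S100B at or under 0.120 CPM, SOX2 at or under 0.0356 CPM and AQP4 at 0. OLIG2, of the same marker group, was at 1.46 to 2.54 CPM. Of the markers of other cell types, PECAM1 and EPCAM reached at most 2.43 and 2.47 CPM, PTPRC and ALB stayed under 1 CPM and HBB was at 0. The LARP6 gene was counted at 51.6 to 74.96 CPM in the 6 lines. Because the constructs were codon-optimised, this value does not check the labels.

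FTH1 carried large peaks in its 5′UTR, at the start of exon 3 and at the stop codon, and none in its 3′UTR. In the FL list, 4 peaks lay in the 209 nt 5′UTR. The peak at the cap began upstream of the annotated start, at nt −7 where nt 0 is the base before nt 1, and ended at nt 40. Its score was 66. The peak at nt 64 to 83 had a score of 4, that at nt 111 to 141 a score of 24, and that at nt 150 to 176 a score of 107. The last of these ranked 48 among the 14334 FL peaks. The remaining FL peaks were both in the coding sequence, at nt 471 to 494 with a score of 83 and at nt 738 to 766 with a score of 29. The 5′UTR thus held 64.2% of the FTH1 score in FL, against 60.5% in ΔNTR and 55.8% in ΔCTR. Among the 205 protein-coding genes with at least 14669 parental PE150 counts, the level of TFRC, the FTH1 5′UTR score ranked 1 in FL, 2 in ΔNTR and 3 in ΔCTR. A 5′UTR peak was present in 38.5, 46.3 and 34.6% of those genes in these lists. The ranked score was not divided by RNA level, and FTH1 ranked 12 among all genes by parental CPM.

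Of the FTH1 sites that FL, ΔNTR and ΔCTR shared, 3 are shown as the sequence around the overlap of their peaks. Capitals mark the main overlap, a run of bases inside a peak of all 3 lists. In the second line nt 176 is also inside a peak of all 3. It is a separate overlap of 1 nt with a further ΔCTR peak and is not in capitals.
FTH1 cap, nt 1 to 30, chr11:61967605-61967634: GCCAGACGTTCTTCGCCGAGAGTCgtcggg
FTH1 5′UTR, nt 148 to 177, chr11:61967458-61967487: ccGCCGCCGCTCCAGCGCCGCGCAGCCacc
FTH1 exon 2 to 3, nt 468 to 497: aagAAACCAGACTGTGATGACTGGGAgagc
The exon 3 peak began in FL and ΔNTR at nt 471, the first base of that exon (chr11:61964987-61965112), and in ΔCTR 6 nt before it, in the intron.

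The stem-loop of FTH1 was covered to a different extent in each list. FL peaks covered 2 of its 17 bases, those of ΔNTR 14, those of ΔCTR 16 and the ΔNTD peak 15, while ΔLa-module had no peak in the gene. Every base of the stem-loop lay inside a peak of at least 1 list, also with ΔNTD left out. The paper judged that ΔNTD and ΔLa-module do not bind RNA in cells and left both out of its later steps. Whether the ΔNTD peak marks LARP6 binding was not tested. The ΔNTR peak at nt 42 to 65 had a score of 11 and was centred 7 nt past the middle of the loop. The ΔCTR peak that reached the stem-loop was the cap peak itself, which ran from nt −8 to 54 with a score of 21. The only FTH1 peak of the ΔNTD list, with a score of 4, lay at nt 41 to 57 and was centred 2 nt past the middle of the loop. The FL list held no peak centred inside the stem-loop, and its nearest peaks were centred 30 nt before and 27 nt past the loop.

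Of the FTH1 sites compared, the cap peak differed most between FL and ΔCTR. Before the stem-loop the score was 21 for ΔCTR against 66 for FL and 79 for ΔNTR. As a share of the list this was 0.275 times the FL value in ΔCTR (0.160 to 0.456) and 1.32 times in ΔNTR (0.942 to 1.86). Past the stem-loop, in the rest of the 5′UTR, the scores were 135, 103 and 108, and the shares were 0.692 times FL in ΔCTR (0.533 to 0.899) and 0.844 times in ΔNTR (0.646 to 1.098). The interval of ΔCTR before the stem-loop lay wholly below that past it. At the start of exon 3 the scores were 83 in FL, 79 in ΔNTR and 57 in ΔCTR, with a ΔCTR share of 0.594 times FL (0.417 to 0.843). At the stop codon the scores were 29, 39 and 29, and neither interval excluded equal shares (0.896 to 2.49 for ΔNTR, 0.499 to 1.501 for ΔCTR). Small peaks that FL lacked appeared at nt 496 to 514 in ΔNTR (score 8) and nt 497 to 514 in ΔCTR (score 10), and at 2 sites of score 3 in ΔCTR alone.

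Over the whole gene, FTH1 summed to a score of 313 in FL, 319 in ΔNTR and 231 in ΔCTR. On the log2 scale, with a pseudocount of 1 on the score, its share of the list was 0.17 above FL in ΔNTR (−0.06 to 0.40) and −0.64 relative to FL in ΔCTR (−0.90 to −0.40). Over the genes whose scores summed to 50 or more in the pair of lists, the median was 0.00 for ΔNTR (803 genes, quartiles −0.58 to 0.43) and −0.03 for ΔCTR (905 genes, quartiles −0.40 to 0.38). FTH1 in ΔCTR was therefore outside the quartiles of all genes, with 13.7% of them lower.

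FTL, which codes for the light chain and whose mRNA has a nearly identical loop in a 5′UTR of similar length, had small peaks, most of them in the coding sequence. FL had 5 peaks with a summed score of 38, ΔNTR 11 peaks with 69 and ΔCTR 8 peaks with 40. The coding sequence held 81.6% of that score for FL, 62.5% for ΔCTR and 69.6% for ΔNTR. The strongest FTL peaks had a score of 15, at nt 492 to 560 in FL and at nt 531 to 563 in ΔNTR, and 7 at nt 523 to 563 in ΔCTR. A peak at the cap was also shared, with scores of 3 in FL, 7 in ΔNTR and 3 in ΔCTR, centred 40, 39 and 34 nt before the loop. None of the 17 bases of the FTL stem-loop lay inside a peak of any list. The next peaks past it were at nt 80 to 106 in ΔCTR (score 6) and nt 92 to 108 in ΔNTR (score 3).

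The share of FTL was 0.99 higher in ΔNTR than in FL on the log2 scale (0.41 to 1.62), above 90.5% of the genes compared, and −0.14 relative to FL in ΔCTR (−0.81 to 0.55). The extra score of ΔNTR was spread over several sites. ΔNTR alone had peaks at nt 117 to 134 (score 6), nt 687 to 721 (score 6) and nt 818 to 836 (score 5), and none of the 4 FTL sites present in FL, ΔNTR and ΔCTR had an interval that excluded equal shares between ΔNTR and FL.

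Relative to their RNA, the ferritin mRNAs differed in score mainly through the 5′UTR. FTH1 had 2.50, 2.38 and 2.44 times the PE150 counts of FTL in the FL, ΔNTR and ΔCTR lines. Its summed score per count was 3.29 times that of FTL in FL (2.35 to 4.74), 1.94 times in ΔNTR (1.49 to 2.56) and 2.37 times in ΔCTR (1.69 to 3.40). For the 5′UTR alone the FL ratio per count was 26.8 (9.03 to 131), from scores of 201 and 3. In ΔNTR it was 5.07 (3.04 to 9.04), from 193 and 16, and in ΔCTR 5.88 (3.00 to 13.2), from 129 and 9. For the coding sequence the ratio per count was 1.67 in ΔCTR (1.07 to 2.71), where FTH1 was higher, but 1.44 in FL (0.962 to 2.22) and 1.102 in ΔNTR (0.785 to 1.57).

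TFRC, the receptor mRNA, had peaks on both sides of the 4 stem-loop matches in its 2658 nt 3′UTR but none in the stretch that holds these matches. The peaks of the 5 lists together covered 789 nt, or 29.7%, of the 3′UTR. Its peaks numbered 10 in FL with a summed score of 109, 20 in ΔNTR with 119 and 16 in ΔCTR with 142. The 3′UTR held 93.6, 84.9 and 86.6% of that score, and no list had a TFRC peak in the 5′UTR. From the first to the last stem-loop match (nt 3295 to 3827, 533 nt or 20.1% of the 3′UTR) there was no peak centre in any of the 5 lists. Of the 35 peaks of the 3′UTR in these lists, 19 lay before this stretch and 16 past it. None of the 17 bases of any of the 4 matches was covered. The bases without a peak ran from nt 3294 to 3865, which at 572 nt was the longest such gap of the 3′UTR, followed by gaps of 211 and 210 nt. The peaks closest to the gap were a ΔNTR peak at nt 3274 to 3293 with a score of 3, centred 19 nt before the loop of match 1, and an FL peak at nt 3866 to 3899 with a score of 7. Positions bound in parental cells were subtracted from every list, so a gap can also hold signal that parental cells shared, and this was not tested.

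**Figure D1:**
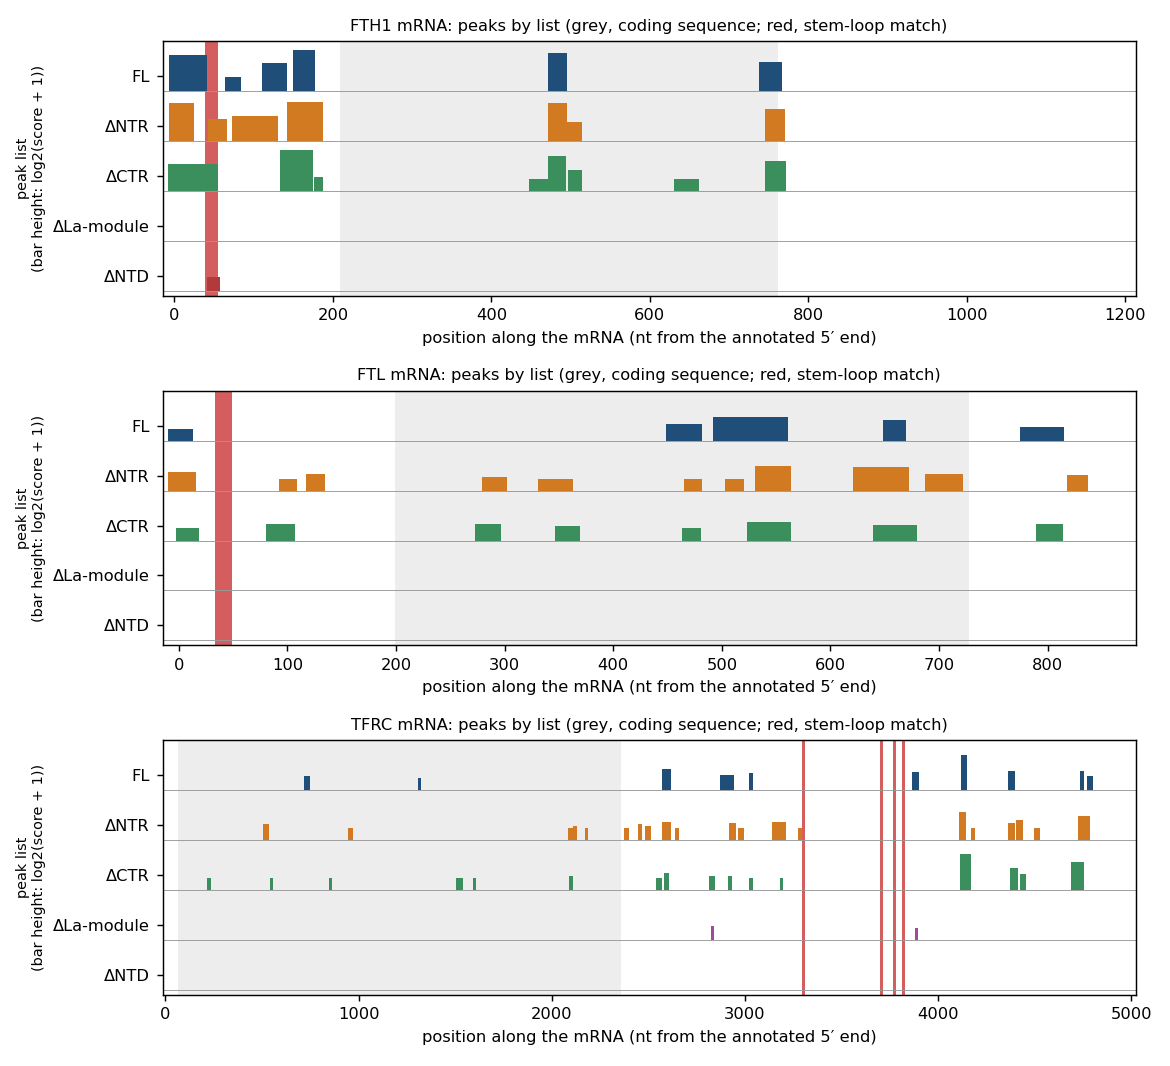
Peaks along the FTH1, FTL and TFRC mRNAs (horizontal axis, nt from the annotated 5′ end), in 1 row per list, with bar height proportional to log2(score + 1), the coding sequence in grey and stem-loop matches in red. Peaks cross the FTH1 match in the FL, ΔNTR and ΔCTR lists and, with a score of 4, in ΔNTD. No peak crosses the match of FTL or the 4 of TFRC.

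The strongest TFRC peak lay past the stem-loops, at nt 4119 to 4149 in FL. Its score was 53 in FL, 24 in ΔNTR (nt 4110 to 4144) and 59 in ΔCTR (nt 4113 to 4169), and in FL it was centred 315 nt past the loop of match 4. It held 48.6% of the TFRC score for FL, 41.5% for ΔCTR and 20.2% for ΔNTR. The bases that all 3 lists covered are given in capitals.
TFRC 3′UTR, nt 4117 to 4146, chr3:196050150-196050179: taTTTGCATGTTACCTCCTATAAACTTAgt
The share of this site in ΔNTR was 0.501 times that in FL (0.296 to 0.825), whereas in ΔCTR it was 0.964 times (0.654 to 1.42). Before the stem-loops the unscaled 3′UTR score was 41 from 9 peaks in ΔNTR, 22 from 3 peaks in FL and 23 from 6 peaks in ΔCTR. The ΔNTR peaks in that stretch had scores of 3 to 7. Over the whole gene the share was 0.27 above FL in ΔNTR (−0.12 to 0.66) and 0.17 above FL in ΔCTR (−0.20 to 0.55) on the log2 scale, and both intervals included 0.

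Per 1000 PE150 counts of the same line, the normalisation used in the study, FTL was low, FTH1 near the middle and TFRC high among genes with a peak. The values of FTH1 were 3.83 (3.42 to 4.28) in FL, 4.24 (3.79 to 4.73) in ΔNTR and 2.91 (2.55 to 3.31) in ΔCTR. Those of FTL were 1.16 (0.823 to 1.60), 2.18 (1.70 to 2.76) and 1.23 (0.878 to 1.67), and those of TFRC 6.89 (5.66 to 8.31), 8.57 (7.10 to 10.3) and 9.06 (7.63 to 10.7). The median over all genes with a peak and at least 10 counts was 3.67 for FL, 4.26 for ΔCTR and 4.00 for ΔNTR. Every peak had a score of at least 3, so genes with few counts entered this comparison only with high values. In each of these 3 lists the intervals of the 3 genes did not overlap, and the order was FTL, FTH1, TFRC.

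In the FL, ΔNTR and ΔCTR lists, all 3 mRNAs had a peak, as did 96.6, 96.1 and 96.6% of the 205 equally or more abundant protein-coding genes. In the ΔLa-module list TFRC alone had peaks, at nt 2823 to 2839 (score 4) and nt 3880 to 3896 (score 3), against 42.9% of those genes. In the ΔNTD list FTH1 alone had a peak, against 25.4%. The second ΔLa-module peak lay inside the FL peak at nt 3866 to 3899, and the first overlapped the ΔCTR peak at nt 2812 to 2846. The ΔLa-module and ΔNTD lists hold only peaks with a score of at least 3 that were not called in parental cells, so an absent peak sets no limit on the binding there.

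Of the 21 FL peaks of the 3 genes, 16 (76.2%) were overlapped by ΔNTR and 16 by ΔCTR, against 35.3 and 37.9% of all FL peaks, which were not matched for score or RNA abundance. In the other direction 42.1% of the 38 ΔNTR peaks and 50% of the 32 ΔCTR peaks were overlapped by FL, against 30.1 and 34.4% of all peaks. With peaks merged into sites, FTH1 had 6 sites, of which 3 were in all of FL, ΔNTR and ΔCTR and 2 in 1 list only. FTL had 11 sites, 4 in all 3 lists and 3 in 1 list. TFRC had 30 sites, 5 in all 3 lists and 22 in 1 list, and no site of TFRC in 1 list had a score above 7.

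In input RNA, FTH1 was lower in every variant line than in parental cells, FTL slightly lower and TFRC slightly higher. The PE150 counts of FTH1 were 98103 in parental cells against 81779 with FL, 79330 with ΔCTR, 75223 with ΔNTR, 81577 with ΔNTD and 80348 with ΔLa-module. With TMM scaling these were 3660, 2913, 2930, 3012, 2965 and 2807 CPM. The parental value stood above the other 5, which spanned 2807 to 3012 CPM. The log2 difference from parental (pseudocount of 1 CPM) was −0.33 with FL, −0.32 with ΔCTR, −0.28 with ΔNTR, −0.30 with ΔNTD and −0.38 with ΔLa-module. The counting interval for ΔLa-module was −0.40 to −0.37. From 3.73% (FL) to 9.47% (ΔNTR) of the 14057 genes tested had a lower value, and all 5 differences rest on the same parental library. No line passed 1.5-fold for FTH1. The gene BEST1 overlaps FTH1 by 5798 nt on the opposite strand. Counts that ignore strand held only 3.12 to 5.39% of the FTH1 counts used here, and on them the median difference over the 5 lines was 0.19 instead of −0.32.

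FTL was at 1288 CPM in parental cells against 1265 with ΔNTR, 1202 with ΔCTR and also with ΔLa-module, 1164 with FL and 1092 with ΔNTD. The log2 differences from parental ran from −0.24 in ΔNTD to −0.03 in ΔNTR, so the parental level was the highest but the ΔNTR line came close to it. TFRC was at 547 CPM in parental cells against 556 with ΔNTR, 563 with FL, 579 with ΔCTR, 589 with ΔLa-module and 622 with ΔNTD. Its log2 differences from parental ran from 0.02 in ΔNTR (−0.01 to 0.06) to 0.18 in ΔNTD (0.15 to 0.22), and the ΔNTR interval included 0. The all-gene medians lay between −0.01 and 0.00 in the 5 lines. Neither gene passed 1.5-fold in any line. For comparison, 0.562% of the 14057 genes were higher and 0.413% lower by over 1.5-fold with FL. These shares were 0.861 and 0.534% with ΔCTR, 3.69 and 1.18% with ΔNTR, 1.41 and 1.34% with ΔNTD, and 2.00 and 0.875% with ΔLa-module.

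**Figure D2:**
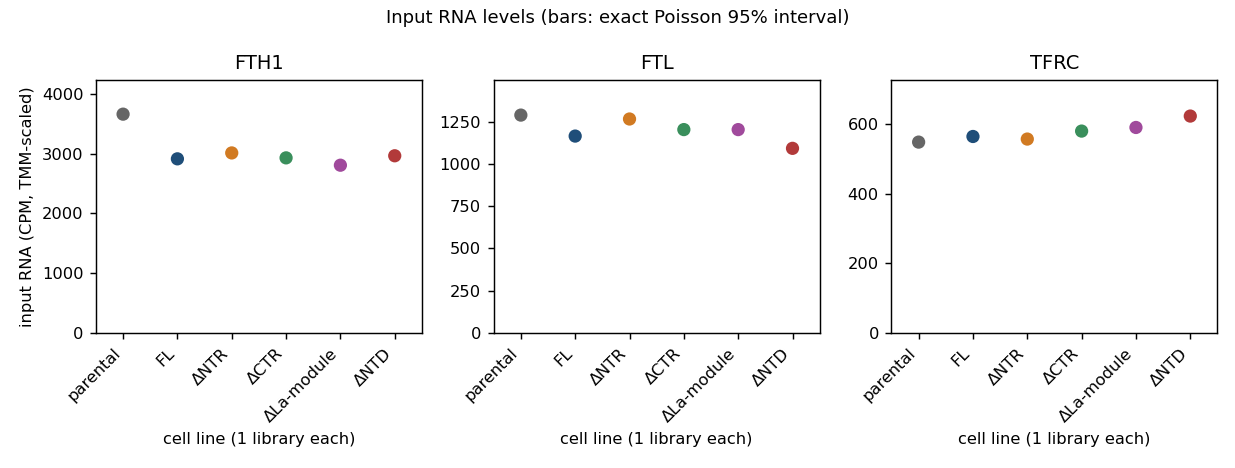
Input RNA level of FTH1, FTL and TFRC (CPM with TMM scaling, vertical axis from 0) in the 6 cell lines, 1 PE150 library each, with exact Poisson 95% intervals that are smaller than the points. Parental cells are highest for FTH1 (3660 CPM) and FTL (1288 CPM) and lowest for TFRC (547 CPM).

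Per kilobase of mRNA, FTH1 was at 2333 to 3043 CPM per kb over the 6 lines, FTL at 1253 to 1479 and TFRC at 109 to 124. The level of FTH1 per kb was 2.06 times that of FTL in parental cells and 1.69 to 1.97 times in the variant lines. The ratio of FTH1 to TFRC per kb was 27.9 in parental cells and 19.8 to 22.6 in the variant lines. The genes whose level followed each mRNA most closely were taken as those with the smallest Euclidean distance between centred log2 CPM over the 6 lines, among 5143 protein-coding genes with at least 1000 counts in every library. They were TALDO1 (distance 0.0408), ZNHIT1 and L3HYPDH for FTH1, LMNA (0.0279), PML and BAP1 for FTL, and MTPN (0.0186), RASA1 and TMED2 for TFRC. The median distance over all these genes was 0.343, 0.279 and 0.216.

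Of the 39 other genes of iron handling, 32 had at least 1 CPM in the mean of the 6 libraries, and 1 of these passed 1.5-fold in any line, upward in ΔNTR. In that line 3.69% of all genes tested were higher by over 1.5-fold, so 1 of 32 is near the background. The gene was HMOX1, haem oxygenase 1, which frees iron from haem. It was at 114 CPM in parental cells against 121 with FL, 132 with ΔCTR, 148 with ΔNTD, 155 with ΔLa-module and 188 with ΔNTR. Its log2 difference was 0.72 in ΔNTR (0.66 to 0.79) and 0.09 to 0.45 in the other lines. The median log2 difference of the 32 genes was −0.06 with FL, −0.09 with ΔCTR, −0.10 with ΔLa-module and −0.05 with ΔNTR and with ΔNTD. ALAS1, the first enzyme of haem synthesis in most tissues, was named after its values were seen. It was at 57.4 CPM in parental cells and 40.5 to 48.1 CPM in the variant lines, with log2 differences of −0.49 to −0.25. ACO1 and IREB2, which code for the iron regulatory proteins, were within −0.18 to 0.13 of parental on the log2 scale in every line. Transcripts of transferrin (TF), of the iron exporter ferroportin (SLC40A1) and of ALAS2, the red-cell form of the haem enzyme, were under 1 CPM or at 0.

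**Figure D3:**
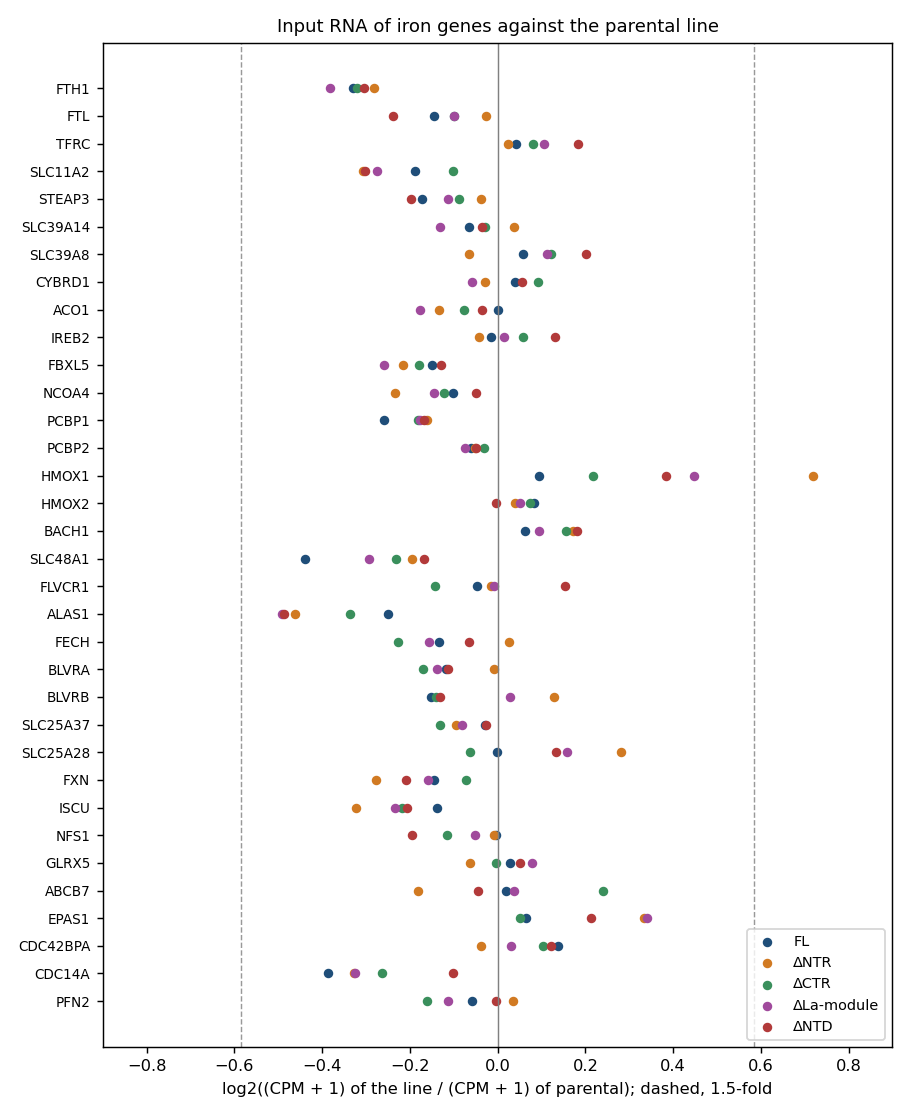
Log2 difference in input RNA from parental cells (horizontal axis, pseudocount of 1 CPM) for FTH1, FTL, TFRC and other iron genes tested, with 1 point per variant line and dashed lines at 1.5-fold. HMOX1 in ΔNTR, at 0.72, is the only point outside the dashed lines.

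In FL and ΔCTR, the summed peak scores of the other iron genes were led by CDC42BPA and EPAS1. In ΔNTR they were led by EPAS1 and SLC39A14. Iron-responsive stem-loops have been described in CDC42BPA and EPAS1 mRNAs, but no match was found in them here. Among the 32 genes, 16 had a peak of FL, 20 of ΔCTR, 19 of ΔNTR, 1 of ΔLa-module and 0 of ΔNTD. The share over all 14057 genes, which were not matched for RNA abundance, was 32.9, 35.1, 33.5, 3.24 and 1.76%. The highest summed FL scores were those of CDC42BPA (154), a kinase that acts downstream of Cdc42, EPAS1 (101), which codes for the hypoxia factor HIF-2α, SLC39A14 (58), a zinc and iron importer, HMOX1 (28) and STEAP3 (25), the endosomal ferrireductase. CDC42BPA had 68 in ΔNTR and 103 in ΔCTR, and EPAS1 had 112 and 178. SLC39A14 had 87 and 71, HMOX1 38 and 27, and STEAP3 37 and 50.

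Other iron genes with the stem-loop match included ALAS2 and SLC40A1, in the 5′UTR, and CDC14A and TF, in the 3′UTR. None of these 4 had a peak in any list, but ALAS2, SLC40A1 and TF were under 1 CPM or at 0. The absence of peaks there therefore says nothing about binding to mRNAs with the match. CDC14A, a phosphatase gene, was at 10.3 to 13.8 CPM in the 6 lines. Over FTH1, FTL and TFRC, 10 of the 94 peaks of the 5 lists were centred within 50 nt of a stem-loop, 6 in FTH1, 3 in FTL and 1 in TFRC.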

How the data were processed

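Per the labels and the methods of the study, the authors trimmed the iCLIP reads, removed rRNA and tRNA reads with Bowtie2, aligned the rest with STAR to GRCh38.p13, removed duplicates with UMI-tools and called peaks with Clippy in each replicate. They then merged 3 replicates per variant and subtracted parental peaks with bedtools 2.30.0, and the deposited score of a peak is the sum of its scores. The deposited counts per gene come from STAR 2.7.10b after Trim Galore 0.6.10, and the authors did not normalise them. The reverse-strand column of the PE150 libraries was used.

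Peaks were placed on MANE Select transcripts of GENCODE 44, a later release than the authors', in which 62625 of the 62750 gene IDs matched without version. Regions followed the order coding sequence, 5′UTR, 3′UTR, intron. Input levels were scaled with TMM (edgeR 4.0.16), and called means past 1.5-fold among genes of at least 1 CPM in the mean of the 6 libraries. The fold calculation was tested on simulated data. Intervals are exact Poisson or exact binomial (scipy, Python), for counting error only. Whole-series precision is set by the totals given above. The rule for named genes took FTH1, FTL and TFRC, iron genes past 1.5-fold, those with the 5 highest FL scores or a stem-loop match, and the 3 genes closest in pattern. Alternatives covered score and distance limits, overlap, transcript, strand, scaling and pseudocounts. The members and lists were chosen with earlier results of these data known. Some items withheld from this text are not reported here, though they enter the counts over the iron list.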

Additional observations from a re-analysis of the deposited data

How the results depend on the processing

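No paired analysis was possible because each variant had 1 pooled peak list and each line 1 input library of a kind. With peaks above a score of 3 alone, the 3 genes kept 20 peaks for ΔCTR, 25 for ΔNTR and 1 for ΔLa-module. Peaks near a stem-loop numbered 4 within 25 nt and 17 within 100 nt. FL peaks overlapped by ΔNTR numbered 8 when 50% of both peaks was required. With unstranded counts the median FTH1 score per 1000 counts was 78.7 and the median log2 input difference was 0.19. The small-RNA libraries held 3 to 39 counts of each gene per line. On them the medians per 1000 counts were 45571 for FTH1, 2667 for FTL and 4739 for TFRC, and the median input differences were 0.14 for FTH1, 0.25 for FTL and −0.18 for TFRC. In single lines these counts gave 0.14 (ΔCTR), 0.30 (ΔLa-module) and 0.69 (ΔNTD) for FTH1, 0.55 (FL), 0.25 (ΔLa-module) and 0.31 (ΔNTD) for FTL, and −0.32 (FL), −0.27 (ΔNTR), −0.18 (ΔLa-module) and −0.16 (ΔNTD) for TFRC, while unstranded counts gave 0.50 (ΔNTR), 0.19 (ΔCTR) and 0.19 (ΔLa-module) for FTH1. The number of iron genes past 2-fold was 0. The other 39 of 54 alternative values of the main results stayed within their counting interval or within 1.5 times, among them the share ratios to FL with a pseudocount of 5 or as raw scores, and the input medians with DESeq2 size factors, library totals or a pseudocount of 0.1 CPM. Comparing raw scores for the FTH1 5′UTR was added after seeing the data and kept each ratio within its interval. The lowest score of 3 was that of 9.52% of the FL, 37.5% of the ΔCTR and 34.2% of the ΔNTR peaks of these genes, against 53.7, 51.1 and 54.5% of all peaks.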

Other observations

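Ferritin has many processed pseudogenes whose reads could be split from the parent genes. The 25 annotated FTH1 pseudogenes summed to 167 to 237 PE150 counts per line, at most 0.295% of the FTH1 counts, and the 16 FTL pseudogenes to 13 to 30 counts, at most 0.0950% of FTL. The FTH1 copies with the highest counts over the 6 lines were FTH1P10 (285 in all), FTH1P20 (180) and FTH1P7 (137). No FTH1 pseudogene held a peak in any list, and of the FTL copies FTLP3 held 1, in FL, with a score of 3. What became of reads that map to more than 1 copy was not tested. These counts therefore do not show how many reads the parent genes lost.

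The bases around FTH1 and FTL peaks were richer in G and C than those of peaks at large. In 31 nt around the peak centre the median G+C of FTH1 peaks was 66.1% for FL, 51.6% for ΔCTR and 61.3% for ΔNTR, against 48.4, 45.2 and 48.4% over all peaks placed on MANE Select mRNAs. FTL peaks were at 53.2, 58.1 and 58.1%, above FTH1 in ΔCTR, and TFRC peaks at 41.9, 41.9 and 38.7%. These medians rest on 6 to 8 FTH1 peaks, 4 to 10 FTL peaks and 10 to 20 TFRC peaks per list and describe the peaks only.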
